A study of Mus musculus with 2 samples.

Results

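S100a4, S100a6, S100a10, S100a11, S100a8 and S100a9 were 6 of the 32285 genes counted in each library. They encode small proteins of the S100 family. The set was picked by name, with earlier results of these 2 libraries in view, to describe which members are transcripts of T cells and which are transcripts of myeloid cells in the tumour, and their levels in normal tissue. A myeloid cell was one with a unique molecular identifier (UMI) of at least 3 of C1qa, C1qb, C1qc, Csf1r, Lyz2 and Csf3r.

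The study profiled single cells of C57BL/6J mice aged 18 to 20 weeks with droplet 3' end sequencing. One library came from colon tumor (TIL) and 1 from normal colon tissue (IEL), and both are labelled as gamma-delta T lymphocytes. No genotype, treatment, tumour model, sort or number of animals is given in the labels used here, and the preparation text names tumour tissue for both samples. Tissue and library cannot be told apart, and with 1 library each there is no replicate check and no test. Intervals in brackets are exact 95% intervals for counting error alone, and UMIs of 1 cell are not independent.

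Most S100 proteins bind calcium through paired EF-hand motifs, and they mostly work as dimers that bind other proteins. S100a4 binds non-muscle myosin and is found in motile cells and in effector and memory T cells. S100a6 is also called calcyclin, S100a10 pairs with annexin A2 at membranes, and S100a11 binds annexin A1. S100a8 and S100a9 form calprotectin, an abundant cytosolic complex of neutrophils and monocytes that is released in inflammation and binds zinc and manganese. Naive and central memory T cells recirculate through lymph nodes with the help of Ccr7 and S1pr1, whereas effector-memory cells stay in or enter tissue.

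All 6 genes lie in the S100 cluster of mouse chromosome 3 (GRCm38, GENCODE M21). S100a4 (chr3:90603771-90606045, plus strand) and S100a6 (chr3:90612882-90624181, plus strand) are neighbours, followed by S100a8 (chr3:90668978-90670035, plus strand) and S100a9 (chr3:90692632-90695721, minus strand). S100a11 (chr3:93520488-93526287, plus strand) and S100a10 (chr3:93555080-93564643, plus strand) lie further along. S100a4 overlaps the annotated gene Gm42674, and S100a11 has the processed pseudogene S100a11-ps on chromosome 12. Neither Gm42674 nor S100a11-ps has a row in the matrices. RefSeq promoter windows of GRCm38.p6, from 250 bases before to 50 after the RefSeq gene start, were matched for 5 of the 6 genes. The RefSeq start can differ from the GENCODE start given above, as it does for S100a8. Windows are shown for S100a4 and S100a6, the pair furthest apart between TIL and IEL among genes detected in both, and for the calprotectin pair, each 5′ to 3′ on the gene's own strand. They span chr3:90603520-90603819 (plus) for S100a4, chr3:90612644-90612943 (plus) for S100a6, chr3:90668821-90669120 (plus) for S100a8 and chr3:90695672-90695971 (minus) for S100a9. Capitals mark matches to any of 4 motifs searched on both strands, which did not overlap each other. They were TATAAA (the TATA box), TGANTCA (an AP-1 site), GGGCGG (a GC box) and TTGCNNAA (a C/EBP core).
S100a4: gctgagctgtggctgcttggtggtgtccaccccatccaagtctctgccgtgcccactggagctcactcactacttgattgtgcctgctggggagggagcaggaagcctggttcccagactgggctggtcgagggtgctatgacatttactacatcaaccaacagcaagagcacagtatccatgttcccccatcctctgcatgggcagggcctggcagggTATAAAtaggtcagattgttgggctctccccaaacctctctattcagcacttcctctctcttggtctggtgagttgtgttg
S100a6: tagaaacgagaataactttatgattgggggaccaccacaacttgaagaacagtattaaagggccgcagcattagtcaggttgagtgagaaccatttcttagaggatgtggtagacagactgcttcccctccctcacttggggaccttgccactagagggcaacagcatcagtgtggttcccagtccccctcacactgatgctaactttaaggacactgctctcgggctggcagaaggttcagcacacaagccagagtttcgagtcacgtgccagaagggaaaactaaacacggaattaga
S100a8: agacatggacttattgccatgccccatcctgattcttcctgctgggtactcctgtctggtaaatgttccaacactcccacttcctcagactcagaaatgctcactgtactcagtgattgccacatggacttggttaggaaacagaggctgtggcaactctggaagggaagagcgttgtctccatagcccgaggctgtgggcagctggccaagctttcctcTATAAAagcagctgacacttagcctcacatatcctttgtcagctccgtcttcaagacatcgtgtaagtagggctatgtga
S100a9: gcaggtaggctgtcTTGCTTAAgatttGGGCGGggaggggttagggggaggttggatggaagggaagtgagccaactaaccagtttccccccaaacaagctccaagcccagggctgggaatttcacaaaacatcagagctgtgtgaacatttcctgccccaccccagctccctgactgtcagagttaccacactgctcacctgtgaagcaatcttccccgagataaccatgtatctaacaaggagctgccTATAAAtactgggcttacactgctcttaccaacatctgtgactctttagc
TATAAA was found in the windows of S100a4 (first base 220), S100a8 (221) and S100a9 (251), and in 13.6% of 32851 promoter windows. Relative to the RefSeq gene start the match lay at -31 in S100a4 and -30 in S100a8, but at 0, on the start itself, in S100a9. GGGCGG was found in S100a9 and S100a11 and in 35.7% of windows, TTGCNNAA in S100a9 and in 10.8%, and TGANTCA in S100a11 and in 7.81%. No searched motif was in the S100a6 window. These are letter matches, not measured sites.

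The TIL library held 13245 cell barcodes and 94953893 UMIs, and the IEL library 9398 barcodes and 69414155 UMIs. After filters 12407 TIL and 9128 IEL cells remained, with medians of 6465 and 6858.5 UMIs. The libraries shared 33 barcodes, or 0.249% of TIL and 0.351% of IEL barcodes. T cells, with at least 2 of Cd3d, Cd3e, Cd3g and Cd247 and fewer than 3 of the myeloid genes, were 12141 TIL cells (97.9%) and 9080 IEL cells (99.5%). A further 50 TIL cells met the myeloid rule with fewer than 2 CD3 genes, 59 met it with at least 2 (called mixed here), and 104 met none. Another 53 TIL cells met neither rule but held at least 3 of 10 neutrophil markers and are called neutrophil-like. No IEL cell was myeloid, mixed or neutrophil-like. Levels below are UMIs of a gene per 1000000 UMIs (CPM), summed over the cells of a class. The gamma-delta constant genes summed to 4887 CPM in TIL T cells and 1545 CPM in IEL T cells. The alpha-beta ones summed to 1959 and 2411 CPM. Trdc was found in 98.9% of TIL and 96.9% of IEL T cells, and Trac in 38.1% and 78.0%. Only 27 TIL and 13 IEL T cells had Trac and no gamma-delta constant gene. The summed levels do not give the receptor class of a cell. The 4 haemoglobin genes summed to 2139 CPM in TIL T cells and 0.189 CPM in IEL T cells.

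In the tumour, T cells held nearly all UMIs of S100a4, S100a6, S100a10 and S100a11, whereas most UMIs of S100a8 and S100a9 lay in neutrophil-like, myeloid and mixed cells. T cells held 98.7% of the S100a4 UMIs of the TIL library, 97.4% of the S100a6, 99.0% of the S100a10 and 97.0% of the S100a11 UMIs. T cells also held 97.8% of the UMIs of all genes, so S100a4 and S100a10 lay slightly above and S100a6 and S100a11 slightly below the share of T cells in the library. The 53 neutrophil-like cells held 62.5% of the S100a8 and 63.0% of the S100a9 UMIs. The 50 myeloid cells added 10.5% and 10.7%, and the 59 mixed cells 7.24% and 7.93%. T cells held 19.8% of S100a8 and 18.3% of S100a9 UMIs, beside a small remainder in unclassed cells.

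**Figure D1:**
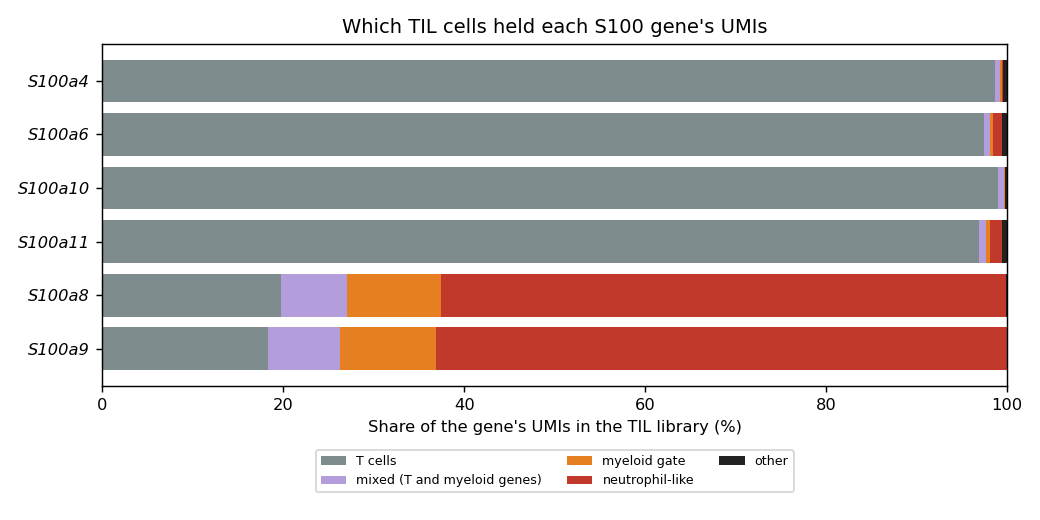
Share of each gene's UMIs in the TIL library (horizontal axis, percent) that lay in each cell class, 1 bar per gene. S100a4, S100a6, S100a10 and S100a11 bars are filled to between 97.0% and 99.0% by T cells, whereas T cells fill 19.8% of the S100a8 and 18.3% of the S100a9 bar.

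Levels per cell class set the genes apart further. S100a8 stood at 52603 CPM in neutrophil-like, 5809 CPM in myeloid and 53.9 CPM in T cells of the TIL library. S100a9 stood at 70760, 7897 and 66.8 CPM in the same classes. Myeloid over T ratios were 108 (103 to 113) for S100a8 and 118 (113 to 123) for S100a9, and neutrophil-like over T ratios were 976 (945 to 1008) and 1060 (1030 to 1091). The myeloid values rest on few cells, since 7 of the 50 myeloid cells held 99.5% of the pair's UMIs and 28 held none. With a rule of 4 and of 2 myeloid genes in place of 3, the myeloid over T log2 ratio was 2.98 and 9.88 for S100a8 and 3.28 and 9.79 for S100a9. S100a10, the annexin A2 partner, was lower in both classes than in T cells, at 213 CPM in neutrophil-like, 309 CPM in myeloid and 1501 CPM in T cells. S100a4 was likewise lower, at 428 CPM in neutrophil-like, 623 CPM in myeloid and 1498 CPM in T cells. S100a6 and S100a11 were highest in neutrophil-like cells, with ratios over T cells of 3.46 (3.31 to 3.61) and 4.31 (4.09 to 4.53), although T cells held most of their UMIs. S100a6 was at 7269 CPM in neutrophil-like, 1333 CPM in myeloid and 2103 CPM in T cells, and S100a11 at 5033, 1028 and 1168 CPM. Every one of the 53 neutrophil-like cells had an S100a11 UMI and 98.1% had an S100a6 UMI, against 26.4% with S100a4 and 30.2% with S100a10.

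Over all genes with at least 20 CPM in either class, 18.4% were at least 2-fold higher and 30.9% at least 2-fold lower in myeloid than in T cells, against 2 of the 6 S100 genes higher (S100a8, S100a9) and 2 lower (S100a4, S100a10). For neutrophil-like over T cells the shares were 14.3% higher and 60.0% lower, against 4 S100 genes higher and 2 lower. The classes were set on other genes, but the S100 set was chosen with such contrasts known, so these ratios describe the libraries and carry no test. T cell transcripts were also counted in these classes. Il17a and Trdc were at 81.0 CPM each in neutrophil-like cells, which was 1.84% and 2.09% of their levels in T cells, and at 89.0 CPM each in myeloid cells. S100a4 in neutrophil-like cells was at 28.6% and S100a10 at 14.2% of the T cell level, with the 127 S100a4 UMIs in 14 of the 53 cells. The part of free RNA in these levels was not tested. Median depths were 4876 UMIs in neutrophil-like, 8560 in myeloid and 6478 in T cells.

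**Figure D2:**
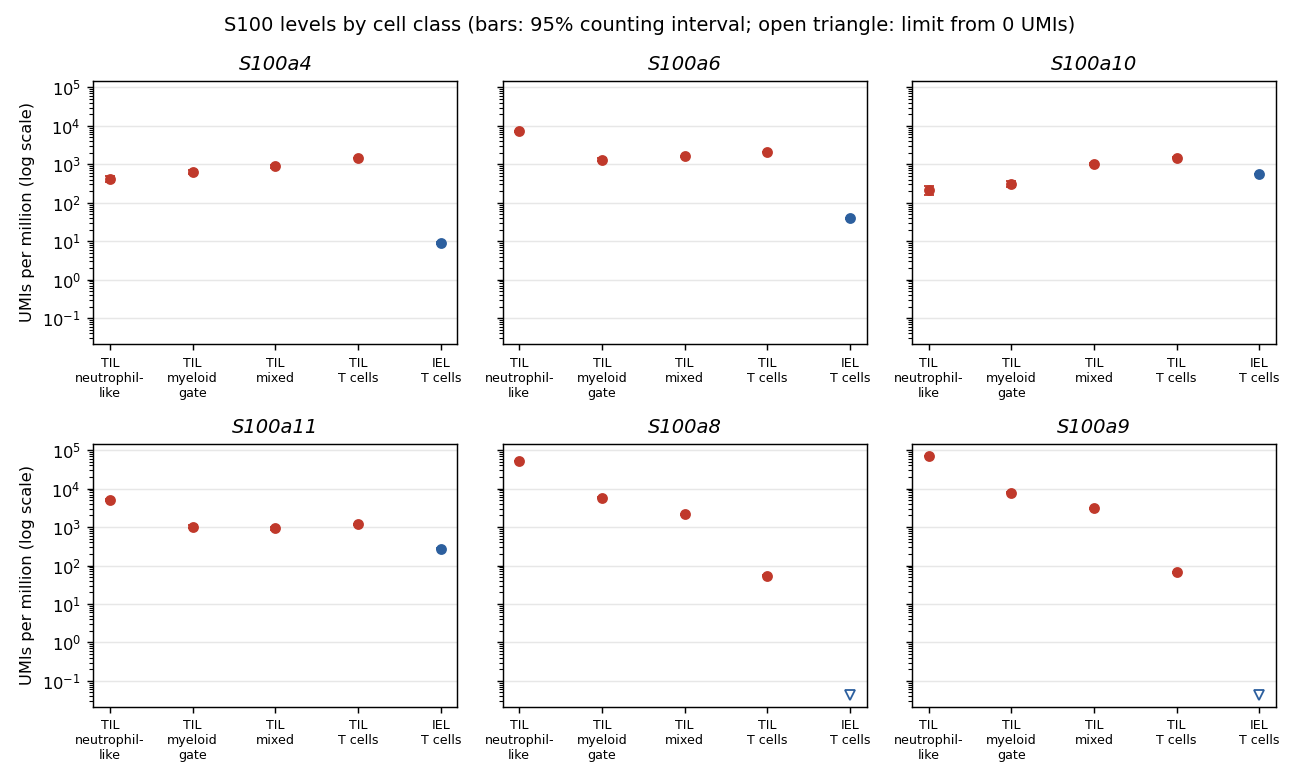
Level of each S100 gene (vertical axis, CPM on a log scale) in 4 classes of TIL cells and in IEL T cells, with 95% counting intervals; open triangles mark the limit from 0 UMIs. S100a8 and S100a9 fall over the classes from 52603 and 70760 CPM in neutrophil-like cells to 53.9 and 66.8 CPM in TIL T cells, with 0 UMIs in IEL T cells. Levels are not scaled to transcript length and are compared within a gene.

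Calprotectin levels varied widely among cells meeting the myeloid rule. The 50 myeloid cells had all 10 macrophage markers at 50 CPM or more, led by Apoe at 22316 CPM, and 9 of 10 neutrophil markers. The 59 mixed cells had Apoe at 9135 CPM, all 10 macrophage markers and 8 of 10 neutrophil markers at that level. Neutrophil-like cells had all 10 neutrophil markers at that level, and C1qa, C1qb and C1qc at 0 UMIs, which their definition by neutrophil markers and fewer than 3 myeloid genes largely fixed. Among all TIL cells, S100a8 was at 13719 CPM in the 29 cells with 3 myeloid genes and at 19788 CPM in the 86 cells with 2, just outside the rule. S100a9 was at 19715 and 25433 CPM in the same cells. In the 22 cells with 4 myeloid genes S100a8 was at 1209 CPM and S100a9 at 2001 CPM. In the 39 cells with 5 myeloid genes S100a8 was at 22.8 CPM and S100a9 at 16.6 CPM. The 19 cells with all 6 had 1374 CPM of S100a8 and 1506 CPM of S100a9, so levels did not fall steadily with the number of myeloid genes. Of the 109 cells meeting the rule, mixed cells included, the 18 with no C1q gene had 21121 CPM of S100a8 and 31010 CPM of S100a9. The 21 with both a C1q gene and Csf3r, the receptor for granulocyte colony-stimulating factor, had 1705 CPM of S100a8 and 2096 CPM of S100a9. The 70 with a C1q gene and no Csf3r had 137 CPM of S100a8 and 24.2 CPM of S100a9. These 2 values rest on 96 S100a8 UMIs in 13 cells and 17 S100a9 UMIs in 12 cells. Every cell without a C1q gene that met the rule held Csf3r by construction, so the absence of C1q and the presence of Csf3r cannot be told apart there.

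A small number of T cells held most of the calprotectin UMIs counted in T cells. Of 12141 TIL T cells, 10292 had neither S100a8 nor S100a9, 1590 had 1 UMI, 221 had 2 to 9 and 38 (0.313%) had 10 or more. Those 38 cells held 80.1% of the S100a8 and S100a9 UMIs of the class, with up to 2434 in 1 cell. At least 2 neutrophil markers were found in 26 of the 38 and in 14 of the 10292 cells without calprotectin UMIs. Among neutrophil-like cells 44 of 53 had 10 or more UMIs, and among myeloid cells 7 of 50. S100a9 UMIs numbered 1.35 per S100a8 UMI in neutrophil-like cells (1.32 to 1.37), 1.36 in myeloid cells (1.29 to 1.43), 1.46 in mixed cells (1.37 to 1.55) and 1.24 in T cells (1.19 to 1.29). The neutrophil marker list summed to 24151 CPM in neutrophil-like cells and 30.8 CPM in TIL T cells. Whether the T cells with many calprotectin UMIs are droplets that hold a neutrophil was not tested, and no doublets were removed.

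**Figure D3:**
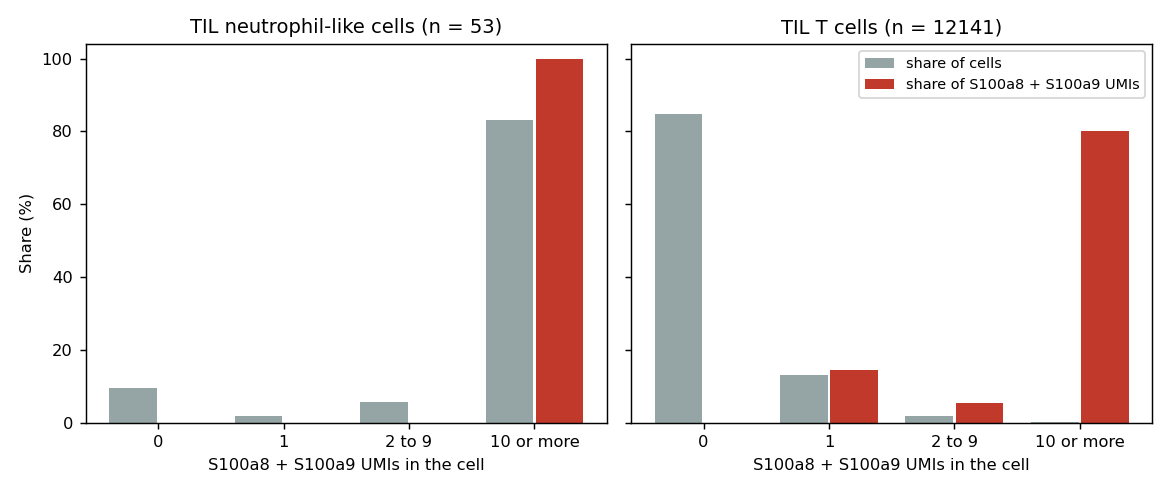
TIL cells binned by S100a8 plus S100a9 UMIs (horizontal axis), with the share of cells (grey) and of the class's UMIs of the pair (red) in percent, for neutrophil-like and T cells. Among T cells the 0.313% of cells with 10 or more UMIs hold 80.1% of the UMIs.

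Between the libraries, all 6 genes were higher in TIL than in IEL T cells, against a background of 11.0% of 6327 genes at least 2-fold higher and 13.6% at least 2-fold lower. The members were picked with this contrast known, so that count supports nothing. S100a4 was at 1498 CPM in TIL, against 9.08 CPM in IEL T cells, a 165-fold difference (152 to 179). S100a6 was at 2103 CPM in TIL, against 39.5 CPM in IEL T cells, a 53.3-fold difference (51.3 to 55.4). An S100a4 UMI was found in 80.0% of TIL and 1.42% of IEL T cells, and an S100a6 UMI in 89.2% and 11.6%.

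S100a10 and S100a11 differed less, and most IEL cells held them. S100a10 was at 1501 CPM in TIL, against 554 CPM in IEL T cells (2.71-fold, 2.68 to 2.74) and was found in 96.7% and 93.5% of cells. S100a11 was at 1168 CPM in TIL, against 277 CPM in IEL T cells (4.22-fold, 4.16 to 4.29) and was found in 95.8% and 75.8% of cells. S100a8 and S100a9 had no UMI in 9080 IEL T cells, which allows up to 0.0437 CPM each. Against a floor of 3 UMIs over the class, S100a8 was 1233-fold and S100a9 1527-fold higher in TIL T cells. The exact lower limits of these ratios were 1002 and 1242. Beside that, the neutrophil list summed to 30.8 CPM in TIL, against 2.14 CPM in IEL T cells, with Csf3r, Retnlg, Clec4d, Trem1 and Mmp8 at 0 in IEL. With each cell thinned to 2000 UMIs, S100a4 was found in 66.5% of 12066 TIL and 0.753% of 9026 IEL T cells, and S100a10 in 84.4% and 62.7%.

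S100a4, S100a6, S100a10 and S100a11 were each at 0.517 to 0.684 of the level of other T cells in memory-like cells of the tumour, short of the 2-fold limit. Programmes were read in T cells thinned to 2000 UMIs as at least 3 markers of a list, so that they are ranges of a score and not types, and a cell can be in several. The memory-like list held 7 genes of naive and central memory cells, among them Il7r, Ccr7, S1pr1, Klf2, Lef1 and Tcf7. It took 919 TIL cells (7.62%), of which 503 had exactly 3 markers, and 2041 cells just outside had 2. S100a4 was at 815 CPM in memory-like and 1546 CPM in other TIL T cells, a ratio of 0.527 (0.512 to 0.543). S100a6 was at 1123 CPM in memory-like and 2172 CPM in other T cells (0.517, 0.505 to 0.530). S100a11 was at 676 and 1203 CPM (0.563, 0.545 to 0.581) and S100a10 at 1048 and 1533 CPM (0.684, 0.666 to 0.701) in the same order. The 2041 cells with 2 markers, counted among the other T cells, had 1638 CPM of S100a4 and 2185 CPM of S100a6. They had 1724 CPM of S100a10 and 1197 CPM of S100a11, so these ratios depend on where the gate is set. The set's working name links S100 genes with tumour memory-like cells, and the levels ran the other way for this list of markers.

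At 2-fold, 1 member was lower in memory-like cells, S100a8, and none was higher, against 4.89% of 5666 genes lower and 3.28% higher. S100a8 was at 26.3 CPM in memory-like and 55.8 CPM in other T cells, and without T cells holding 2 or more neutrophil genes, a setting added after the data were seen, no member was 2-fold lower. The median log2 ratio of the 6 genes was -0.88, and that of all genes tested was -0.16. Memory-like cells had a median of 5345 UMIs and other T cells 6576. After thinning, S100a4 was found in 35.0% of memory-like and 69.1% of other T cells, S100a6 in 47.3% and 83.2%, S100a10 in 64.4% and 86.1%, and S100a11 in 53.3% and 84.2%.

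Levels of these 4 genes were lower in cells with 3 or more memory-like markers than in cells with 2. S100a4 was at 1413, 1571 and 1638 CPM in TIL T cells with 0, 1 and 2 markers. It was at 1152 CPM with 3, 369 CPM with 4, 260 CPM with 5, 45.5 CPM with 6 and 13.1 CPM with 7, the last in 15 cells. The value at 6 markers rests on 11 UMIs among 53 cells (22.7 to 81.4 CPM). That at 7 rests on 1 UMI (0.332 to 73.0 CPM). The part of free RNA in such low values was not tested. S100a6 was at 2185 CPM with 2 markers, 1515 CPM with 3, 661 CPM with 4 and 103 CPM with 6. S100a10 and S100a11 declined less, to 372 and 207 CPM in cells with 6 markers, against 1724 and 1197 CPM with 2. Other transcripts moved along the same axis. In the 68 cells with 6 or more markers Il17a was at 119 CPM and Trdc at 1075 CPM, against 4628 and 4010 CPM in cells with 0 to 2, and Trdc was found in every one of the 68. Their part in the S100 levels was not tested.

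**Figure D4:**
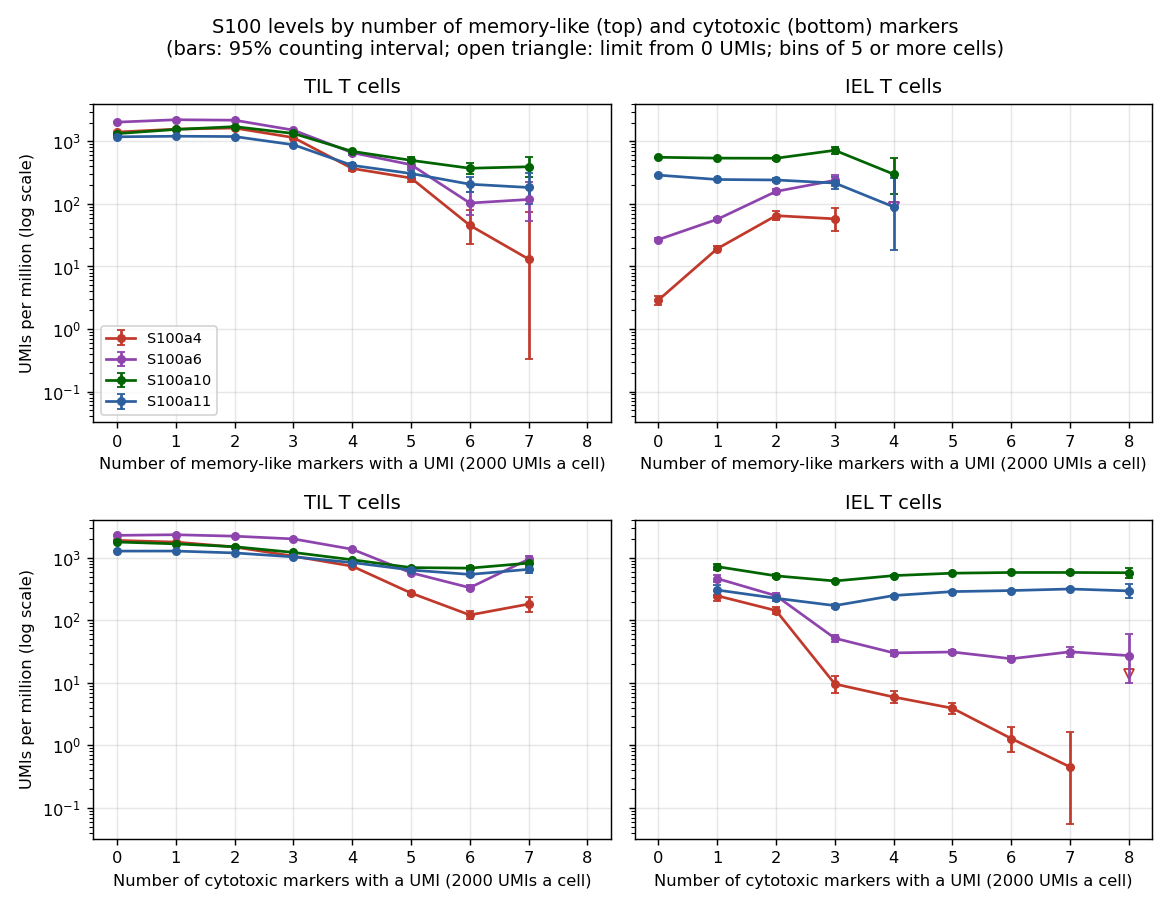
Levels of S100a4, S100a6, S100a10 and S100a11 (vertical axes, CPM on a log scale) in T cells by the number of memory-like markers (top) or cytotoxic markers (bottom) with a UMI, for TIL (left) and IEL (right), with 95% counting intervals. In TIL, S100a4 is at 1413 CPM at 0, 1638 CPM at 2 and 45.5 CPM (11 UMIs) at 6 memory-like markers. In IEL it is at 2.90 CPM at 0, 65.0 CPM at 2 and 57.8 CPM at 3.

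S100a4, S100a6, S100a10 and S100a11 were 1.24-fold to 1.47-fold higher in effector-memory than in other TIL T cells. The effector-memory list (Cd44, Il7r, Ccr2, Itgb1, Cxcr6) took 5889 TIL cells and the IL-17 list (7 genes, among them Il17a, Il17f, Il23r, Ccr6, Blk and Maf) 2632. S100a4 was at 1800 CPM in effector-memory and 1223 CPM in other TIL T cells (1.47-fold, 1.46 to 1.49). S100a6 was at 2477 and 1763 CPM (1.40-fold), S100a10 at 1736 and 1287 CPM (1.35-fold) and S100a11 at 1301 and 1048 CPM (1.24-fold) in the same order. None of these reached 2-fold. S100a8 (0.173) and S100a9 (0.180) were at least 2-fold lower, against 1.42% of 5553 genes lower and 0.018% higher. After thinning, S100a8 was found in 2.33% of effector-memory and 2.41% of other T cells and S100a9 in 3.21% and 3.53%, with up to 22 UMIs of S100a8 in an effector-memory cell and up to 176 in another T cell. Levels in IL-17 cells were 1889 CPM for S100a4 and 2578 CPM for S100a6. Among cells in exactly 1 programme, S100a4 was at 1845 CPM in effector-memory, 1825 CPM in IL-17, 1465 CPM in cycling, 533 CPM in cytotoxic and 460 CPM in memory-like cells, and at 1535 CPM in the 2813 cells in none. In the cells in none, S100a6 was at 2100 CPM, S100a10 at 1544 CPM and S100a11 at 1239 CPM, beside 2423, 1550 and 1280 CPM in cells of the IL-17 programme alone. In all 65 cycling cells S100a6 was at 1460 CPM and S100a10 at 1498 CPM.

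Cytotoxic cells of the tumour, with at least 3 of Gzma, Gzmb, Nkg7, Ccl5, Klrd1, Prf1, Xcl1 and Cd160, also had low S100a4. TIL T cells with 0 cytotoxic markers had 1898 CPM of S100a4, and those with 6 had 122 CPM. S100a6 was at 2287 CPM with 0 and 333 CPM with 6 markers, S100a10 at 1790 and 684 CPM, and S100a11 at 1281 and 542 CPM. The 4 genes were thus lower toward the high end of both the memory-like and the cytotoxic axis, although all 4 were higher with 7 than with 6 cytotoxic markers. In the 39 cells with 7, S100a4 was at 182 CPM, S100a6 at 949 CPM, S100a10 at 823 CPM and S100a11 at 655 CPM. Of the 2696 cytotoxic TIL cells, 1382 had exactly 3 markers and 2948 cells just outside had 2.

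In IEL, S100a4 was held by a small number of cells. The S100a4 UMIs, 623 in all, lay in 129 of 9080 T cells, and 33 cells with 5 or more held 73.7% of them. Every one of these 33 cells also had S100a6. By programme, 15 of the 33 (45.5%) were effector-memory, 14 (42.4%) cytotoxic and 6 (18.2%) IL-17, against 0.169%, 96.9% and 0.0450% of the cells without S100a4. None of the 33 shared a barcode with the TIL library. The 50 effector-memory IEL cells had 665 CPM of S100a4 and other IEL T cells 5.24 CPM, a 127-fold difference (108 to 149). Of these 50 cells, 45 had exactly 3 markers and 27 were also cytotoxic, and 344 IEL T cells just outside had 2 markers. The 18 cells in the effector-memory programme alone held 170 of the 266 S100a4 UMIs of the 50. S100a6 was at 1209 CPM in effector-memory and 32.6 CPM in other IEL T cells (37.1-fold), S100a10 at 1274 and 550 CPM (2.32-fold) and S100a11 at 665 and 275 CPM (2.42-fold). All 4 members that reached 20 CPM were at least 2-fold higher and none lower, against 6.23% and 5.45% of 6262 genes.

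Memory-like IEL cells numbered 64, of which 54 had exactly 3 markers. S100a4 was at 50.1 CPM in memory-like and 8.81 CPM in other IEL T cells (5.69-fold, 3.58 to 8.61), and S100a6 at 209 and 38.3 CPM (5.46-fold, 4.40 to 6.69). S100a10 was at 676 and 553 CPM and S100a11 at 196 and 277 CPM. In all, 2 members were at least 2-fold higher and none lower, against 3.51% of 6182 genes higher and 3.64% lower. The S100a4 value rests on 23 UMIs in 7 cells. By marker number, S100a4 was at 2.90 CPM in IEL T cells with 0 memory-like markers, 19.2 CPM with 1, 65.0 CPM with 2 and 57.8 CPM with 3, with 0 UMIs in the 10 cells with more. Other IEL T cells were nearly all cytotoxic, with a median of 5 cytotoxic markers, against 3 in memory-like IEL cells.

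Set side by side within a programme, the S100a4 ratio between the libraries was 2.71 in effector-memory, 2.39 in IL-17 and 208 in cytotoxic cells, beside 165 in all T cells. In effector-memory cells S100a4 was at 1800 CPM in TIL, against 665 CPM in IEL (2.71-fold, 2.40 to 3.07), and S100a6 at 2477 and 1209 CPM (2.05-fold, 1.87 to 2.24). S100a10 (1.36-fold) and S100a11 (1.96-fold) stayed under 2-fold there, so 2 of 4 members that reached 20 CPM were called higher and none lower, against 8.85% and 12.4% of 6181 genes. The gate was not alike in the libraries, since 27 of its 50 IEL cells were also cytotoxic, against 784 of 5889 in TIL. In cells of this programme alone (3592 TIL, 18 IEL), levels lay closer. S100a4 was at 1845 CPM in TIL, against 1265 CPM in IEL, and S100a6 at 2449 and 1942 CPM. S100a10 was at 1810 and 1712 CPM and S100a11 at 1326 and 886 CPM in the same order. In IL-17 cells, of which IEL had 20, S100a4 was at 1889 CPM in TIL, against 789 CPM in IEL (2.39-fold, 1.95 to 2.97). S100a10 was at 1622 and 1536 CPM there (1.06-fold, 0.912 to 1.23), an interval that includes 1. Of 4 members, 1 was at least 2-fold higher and none lower, against 10.7% and 17.4% of 6158 genes.

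In the cytotoxic gate S100a4 was at 787 CPM in the 2696 TIL cells, against 3.79 CPM in the 8705 IEL cells, a 208-fold difference (184 to 236). S100a6 was at 1507 and 30.6 CPM (49.2-fold, 47.1 to 51.5), S100a11 at 890 and 278 CPM (3.20-fold) and S100a10 at 1029 and 554 CPM (1.86-fold). These 3 ratios were below the 53.3, 4.22 and 2.71 of all T cells. With S100a8 and S100a9, 5 of 6 members in TIL passed 2-fold upwards and none downwards, against 8.44% and 8.92% of 6255 genes. Leaving out cytotoxic cells that were also IL-17 or effector-memory, which was chosen after the data were seen, gave 187-fold for S100a4, 36.9-fold for S100a6 and 2.58-fold for S100a11, and 826 CPM in TIL, against 552 CPM in IEL, for S100a10. There 5 of 6 members were at least 2-fold higher and none lower, against 6.34% and 7.0% of 6187 genes. S100a4 stood at 507 CPM in the 1768 TIL cells left and 2.71 CPM in the 8676 IEL cells left. For comparison, TIL T cells with 6 memory-like markers had 45.5 CPM (22.7 to 81.4), from 11 UMIs. At 6 or more cytotoxic markers, S100a4 was at 132 CPM in the 241 TIL cells, against 1.10 CPM in the 2681 IEL cells, and Ccl5, a cytotoxic marker, at 16751 and 24291 CPM.

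**Figure D5:**
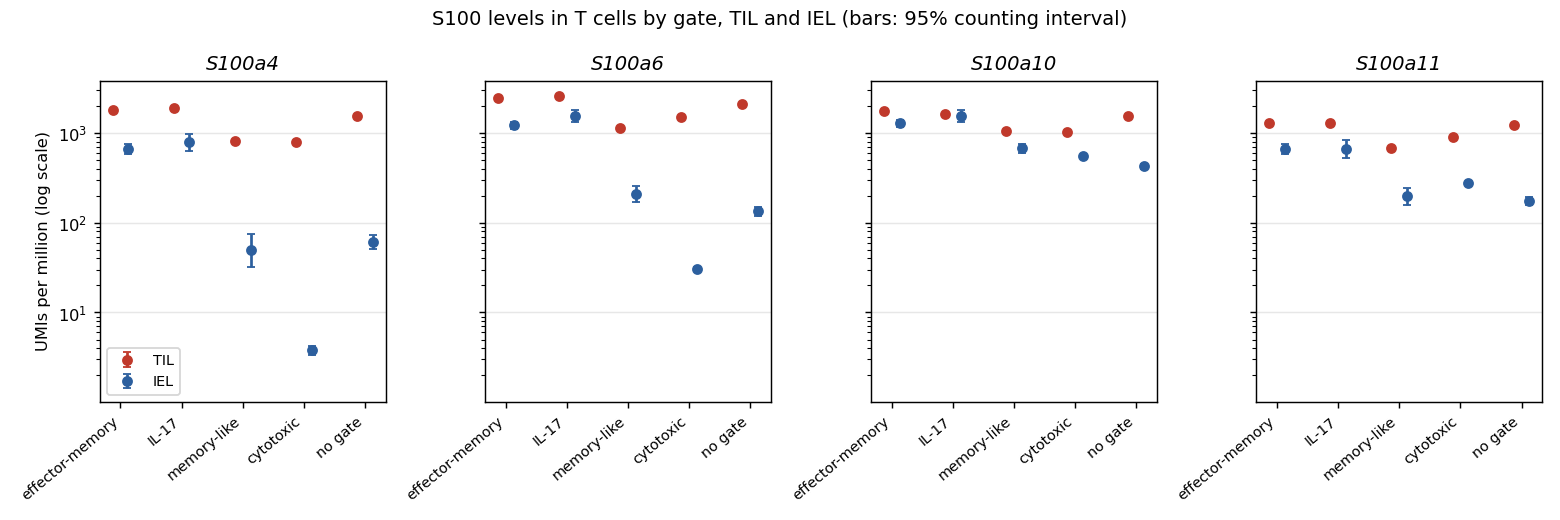
Levels of S100a4, S100a6, S100a10 and S100a11 (vertical axis, CPM on a log scale) in T cells of each programme, TIL (red) left of IEL (blue), with 95% counting intervals. S100a4 is at 1800 CPM in TIL, against 665 CPM in IEL effector-memory cells, and at 787 CPM in TIL, against 3.79 CPM in IEL cytotoxic cells.

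In the tumour, S100a4 was at 1487 CPM in 7489 TIL T cells with a gamma-delta constant segment and no Trac, at 1515 CPM in 4601 with both, at 1221 CPM in 27 with Trac alone and at 775 CPM in 24 with neither. In IEL it was at 17.9 CPM in 1990 cells with a gamma-delta segment alone and 7.12 CPM in 7066 with both. Between the libraries, gamma-delta cells without Trac differed 83.3-fold for S100a4, 36.3-fold for S100a6, 5.61-fold for S100a11 and 3.13-fold for S100a10. With S100a8 and S100a9 all 6 were at least 2-fold higher, against 11.4% of 6336 genes, with 13.7% lower. Cells with Trac alone numbered 27 in TIL and 13 in IEL, with 151 and 0 UMIs of S100a4, and 14.9% of 6221 genes were higher and 28.1% lower in these few TIL cells.

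Several genes that bind S100 proteins or are often read with them were also higher in TIL T cells. Of 16 such genes listed with earlier results known, 13 reached 20 CPM, and 9 were at least 2-fold higher and 1 lower in TIL than in IEL T cells, against 11.0% higher and 13.6% lower over all genes, with a median log2 ratio of 1.86 against -0.10. Lgals1, a galectin, was at 2015 CPM in TIL, against 82.9 CPM in IEL T cells (24.3-fold). Capg, an actin-capping protein, differed 12.5-fold and Crip1 9.92-fold. Anxa2, the S100a10 partner, was at 317 and 85.4 CPM (3.71-fold). Cacybp, the calcyclin-binding protein named for S100a6, was at 74.5 CPM in TIL, against 165 CPM in IEL T cells, which made it the 1 lower gene. In memory-like TIL cells 2 of 13 were lower, Capg (0.397) and Lgals1 (0.446), and none was higher, against 4.89% of all genes lower and 3.28% higher. Ager and Tlr4, the receptors of released calprotectin, were at 0.492 and 0.230 CPM in TIL T cells, while Tlr4 was at 54.0 CPM in neutrophil-like cells. Of 10 other S100 genes, S100a13 alone reached 20 CPM, at 298 CPM in TIL, against 128 CPM in IEL T cells (2.33-fold).

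Likeness across cells was described by the Pearson correlation of log2(1 + UMIs) over 12066 TIL T cells, which share 1 library and 1 depth of 2000 UMIs. The gene most like S100a4 was S100a6 (r = 0.62), followed by Lgals1 (0.52), S100a10 (0.41), Crip1 (0.38) and S100a11 (0.32), and the least like of 2630 genes was Ccl5 (-0.34). S100a6 had S100a4, Lgals1 (0.61), S100a10 (0.44), Tmsb4x (0.41) and Crip1 (0.39). S100a10 and S100a11 were each most like S100a6 (0.44 and 0.38). In the same cells, S100a8 and S100a9 had r between -0.03 and 0.03 with these 4 genes. Over 12275 TIL cells of all classes, S100a8 was most like S100a9 (0.90), G0s2 (0.85), Retnlg (0.84), Acod1 (0.79) and Wfdc21 (0.78), and 3 of these, G0s2, Retnlg and Acod1, are on the neutrophil list.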

How the data were processed

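Single cells from 1 TIL and 1 IEL library (10x Genomics 3' v3) were analysed. Both deposited tables are raw UMI counts, whole numbers without scaling, for each gene in each barcode per the file headers. Cell Ranger 6.1.1 and mm10 appear in the submitters' processing notes. The method of cell calling is not given in the sources used here, and the lowest barcodes held 501 (TIL) and 500 (IEL) UMIs. The S100 members and the marker lists were chosen with earlier results of these data known.

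Barcodes below 500 genes or 1000 UMIs, or above 10% mitochondrial UMIs, were dropped (93.7% of TIL and 97.1% of IEL barcodes stayed). No doublet caller was run and no doublets were removed. Cells were classed by marker UMIs without clustering. Some markers of the lists are not reported here. Programme gates were read after thinning each cell to 2000 UMIs (seed 1); 132 TIL and 76 IEL cells were too shallow. UMIs were summed per class and given as CPM with exact Poisson intervals, ratios with exact conditional intervals and shares with Clopper-Pearson intervals, at 95%. Genes with at least 20 CPM in either class were compared, and a gene was counted past 2-fold. A count of 0 was set to 3 UMIs over the class. Intervals and floors cover counting error only. Each group was 1 library, so no p-value was computed.

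Named genes were the 6 members, up to 4 partner genes furthest apart in each direction, and the 5 genes most correlated with each member. Anxa2, Ager, Tlr4 and the marker genes were named in addition, after their values were seen. The ratio, interval and thinning steps were tested on simulated data. Python 3.11.15 with numpy 2.4.6, scipy 1.17.1 and pandas 2.3.3 was used.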

Additional observations from a re-analysis of the deposited data

Results flagged for a closer look

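S100a4 and S100a6 differed in opposite directions between memory-like and other T cells in the 2 libraries. The log2 ratio of S100a4 was -0.92 in TIL and 2.51 in IEL, and that of S100a6 was -0.95 in TIL and 2.45 in IEL. The difference between the libraries was not tested. The IEL values rest on 64 memory-like cells with 23 UMIs of S100a4 and 96 of S100a6. Other T cells had a median of 1 cytotoxic marker in TIL and 5 in IEL, and the part of that in the result was not tested.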

How the results depend on the processing

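No paired analysis was possible because each group had 1 library. Over the alternatives, 87 of 105 counts of members stayed within 1.5 times and 18 moved, and of 342 values of single members 155 stayed within their interval and 187 moved. The count of members at least 2-fold lower in memory-like TIL cells, 1 as reported, moved most. It was 0 without T cells holding a myeloid gene, with the median ratio set to 1, with a gate of 2 markers, and without T cells holding 2 or more neutrophil genes (this one added once values were known). The count was 2 under the strict cell filter, with 1 CD3 gene, with effector-memory markers and outside the IL-17 gate, 3 for gamma-delta cells without Trac, 4 with a gate of 4 markers or without Il7r, and 5 at 1000 UMIs. The S100a4 log2 ratio there ran from -2.40 to 0.56, and it was positive under 1 of 15 alternatives, the effector-memory markers. The sign stayed the same under 14 of 15 alternatives for S100a6 and for S100a11. For S100a10 it stayed the same under 13 of 15, with log2 ratios from -1.37 to 0.43. The count at least 2-fold higher in cytotoxic TIL cells, 5 as reported, was 3 without T cells holding a myeloid gene, without those holding 2 or more neutrophil genes, at 1000 UMIs and with a gate of 4 markers. The count lower in myeloid than in T cells, 2 as reported, was 1 with a rule of 2 and 4 with a rule of 4 myeloid genes. With neutrophil-like cells counted as myeloid (chosen after the data were seen), S100a6 and S100a11 had log2 ratios of 0.81 and 1.17. The T cell share of S100a8 UMIs ran from 3.99% to 39.2%. TIL over IEL log2 ratios ran from 6.38 to 7.46 for S100a4, 5.18 to 5.83 for S100a6, 1.44 to 1.65 for S100a10 and 2.07 to 2.49 for S100a11. Memory-like IEL values rest on 64 cells, and genes under 20 CPM were not compared.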
